A study of Drosophila melanogaster with 3 samples.

Results

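The nuclear genes for the mitochondrial respiratory chain and ATP synthase numbered 87 of the 13945 protein-coding genes of the fly annotation. They were chosen by symbol alone, as protein-coding genes whose symbol begins with ND-, UQCR-, ATPsyn, COX and a digit, or Sdh and a letter from A to D. Of these, 40 genes belonged to complex I, 7 to complex II, 9 to complex III, 16 to complex IV and 15 to complex V. The symbols of 24 genes end in L, or in L and a digit, after the name of another subunit (SdhAL after SdhA); they are called second copies here, and the other 63 subunits under their own name. Subunits with older symbols, such as blw and levy, do not follow the rule and are given separately.

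The chain passes electrons from NADH (complex I) and succinate (complex II) through ubiquinone, complex III and cytochrome c to oxygen at complex IV, and complexes I, III and IV pump protons across the inner mitochondrial membrane. ATP synthase, complex V, lets the protons flow back and makes ATP. Most subunits are encoded in the nucleus, so their promoters lie in nuclear chromatin and can be examined by chromatin immunoprecipitation. In Drosophila many subunits have second copies elsewhere in the genome, a number of which are known for expression in the male germ line.

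Binding of CG3995, called bdwf in the annotation, was mapped by ChIP-seq in Drosophila embryos of both sexes pooled, from 0 to 24 hours of age. The flies stably carried a CG3995 transgene with GFP at its C terminus, and chromatin sheared to 200 to 800 bp was precipitated through the tag. All 3 libraries were biological replicates of that tagged line, with a single genotype and age range and no treatment, so the comparisons are between genes. Whole embryos mix all tissues and stages, and neither the transgene's driver nor the depth of the libraries is known here.

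A gene was called bound when the summit of a peak kept in the authors' thresholded list of 4260 peaks lay within 500 bp of one of its annotated starts. That list is named by the authors as thresholded by IDR, the irreproducible discovery rate, which weighs how regions rank across replicates. The strength of a peak is its signal, the value the authors' peak caller gave it in the list called on all replicates together; it ranks peaks within that list only, where it ran from 31.3 to 50371, and from 127 upwards in the thresholded list. In each replicate the 4260 strongest regions of its own list were used in the same way, and replicates were compared by rank because their signal scales differed. No control precipitation was analysed here. Where several genes have a start near a summit, the data cannot tell which of them the binding belongs to.

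Subunits under their own name were bound often and their second copies almost never. Of the 87 genes, 41 were bound (47.1%), against 28.2% of all protein-coding genes. The 63 subunits under their own name held 40 of these (63.5%). The 24 second copies held 1 (4.17%). In replicates 1, 2 and 3, bound genes made up 42.5%, 51.7% and 35.6% of the 87, against 28.0%, 28.0% and 26.3% of all protein-coding genes. The genes of the chain were above the background in each replicate, and their share varied more between replicates than the background did. The mean was 43.3% ± 8.07 for the 87 genes and 27.4% ± 0.979 for all protein-coding genes (SD, n = 3).

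Set against the 13858 other protein-coding genes, the share of the 87 genes was higher by 14.6, 23.9 and 9.38 percentage points in replicates 1, 2 and 3. The mean difference was 16.0 ± 7.33 points (SD, n = 3; exact permutation test over replicates, two-sided, p = 0.25, the smallest value that 3 replicates allow). For subunits under their own name the difference averaged 30.9 ± 10.4 points, and for second copies -23.2 ± 0.944 points (SD, n = 3; exact permutation p = 0.25 each). Both directions were the same in all 3 replicates. The p-values follow from that agreement in sign alone and measure neither the size nor the spread of the differences. Of the 41 bound genes, 29 were also among the strongest 4260 regions of all 3 replicates, 7 in 2 of them and 5 in 1. Another 7 genes reached that list in 1 replicate without being bound in the thresholded list. By the same rule 3035 of the 3936 bound protein-coding genes were found in all 3 replicates.

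**Figure D1:**
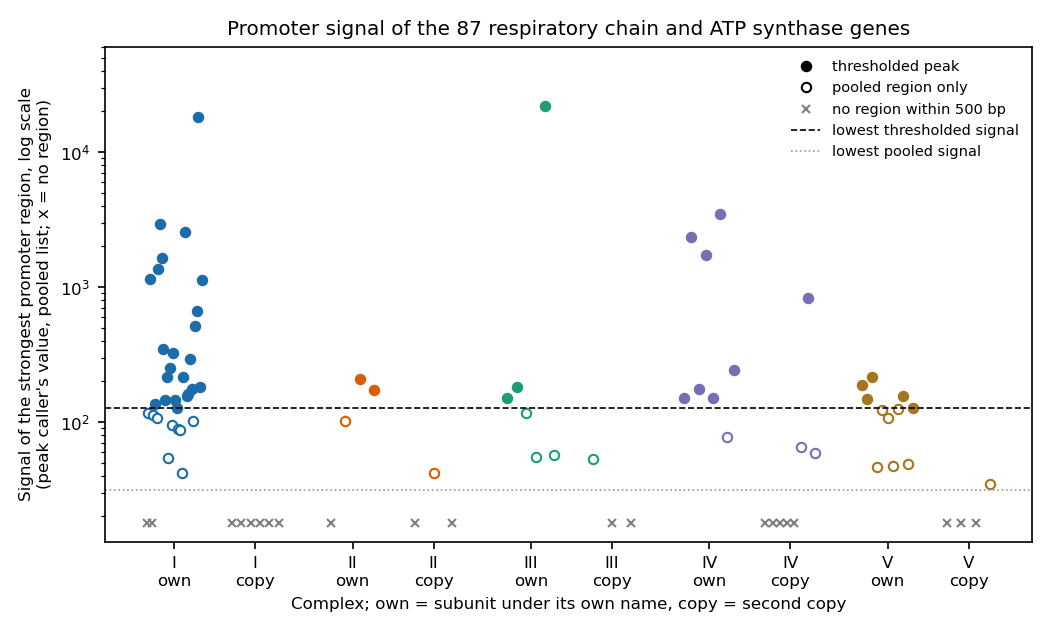
Signal of the strongest region within 500 bp of a start (log scale, peak caller's value in the pooled list) for each of the 87 genes, by complex and by own name or second copy. Filled circles are thresholded peaks, open circles are regions of the pooled list below the threshold, and crosses are genes with no region. UQCR-C2 at 22105 and ND-MWFE at 18137 stand far above the other 39 bound genes, and 18 of the 24 second copies have no region.

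Nearly all subunits under their own name, the bound ones included, had a region of some signal near a start. A region of the whole pooled list, which includes background regions, lay within 500 bp of a start in 66 of the 87 genes (75.9%), against 57.3% of all protein-coding genes. That was the case for 60 of the 63 subunits under their own name (95.2%) and for 6 of the 24 second copies. Since background regions are part of that list, a region in it does not by itself show binding. The 3 subunits under their own name without any pooled region were SdhA and the complex I subunits ND-13A and ND-18.

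Binding differed in strength by orders of magnitude. The median signal of the 41 bound genes was 214, at rank 2307, against 256, at rank 1825, for all bound protein-coding genes, so the typical bound gene of the chain was not a strong target. Some bound genes of the chain reached far higher. The 852 strongest thresholded peaks lay at 14 of the 87 genes (16.1%), against 7.31% of all protein-coding genes. Those 14 genes were 34.1% of the bound genes of the chain, against 25.9% of all bound protein-coding genes. Complex I held 9 of them, complex IV held 4 and complex III held 1, while complexes II and V held 0.

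UQCR-C2, a core protein of complex III, carried the strongest peak of the chain. Its signal was 22105, and it ranked 9, 8 and 8 in replicates 1, 2 and 3. ND-MWFE, a small membrane subunit of complex I, followed with a signal of 18137 and ranks 20, 17 and 18. These 2 genes lay within the first 20 regions in each replicate. The peaks were also the widest of the bound genes of the chain, at 1021 bp for UQCR-C2 and 856 bp for ND-MWFE.

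The next 8 genes by signal ranked between 196 and 374 in the pooled list, and ND-SGDH followed closely at 380. COX7B, an accessory subunit of complex IV, had a signal of 3506 and ranked 195, 196 and 216 in the 3 replicates. ND-30, a core subunit of the arm of complex I that reaches into the matrix, had a signal of 2929 and ranked 220, 219 and 218. ND-B16.6, an accessory subunit of complex I, had a signal of 2568 and ranked 233, 232 and 236. All of these kept nearly the same place in each replicate. COX5A and COX6B, accessory subunits of complex IV, had signals of 2331 and 1719. ND-39, an accessory subunit of complex I, had a signal of 1646. ND-24, an iron-sulphur subunit near the site of NADH oxidation, had a signal of 1368. ND-15, a further accessory subunit, had a signal of 1153 and ranked 356, 364 and 504, so replicate 3 placed it lower than the other replicates did. The remaining genes of the strongest 14 were ND-SGDH (1119), COX7AL2 (830.1), ND-MNLL (669.6) and ND-MLRQ (514).

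The order was steady at the top and loose near the threshold. All 14 of the strongest genes were among the 4260 strongest regions of every replicate, with no rank beyond 1024, and the median ratio of a gene's highest to its lowest replicate rank was 1.15. Of the other 27 bound genes, 15 were in all 3 (55.6%), the ranks reached 7989 and the median ratio was 1.62. All bound protein-coding genes divided in the same way, with 99.7% of those in the strongest peaks and 69.2% of the rest found in every replicate. The steadiness was thus that of strong peaks as a whole.

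**Figure D2:**
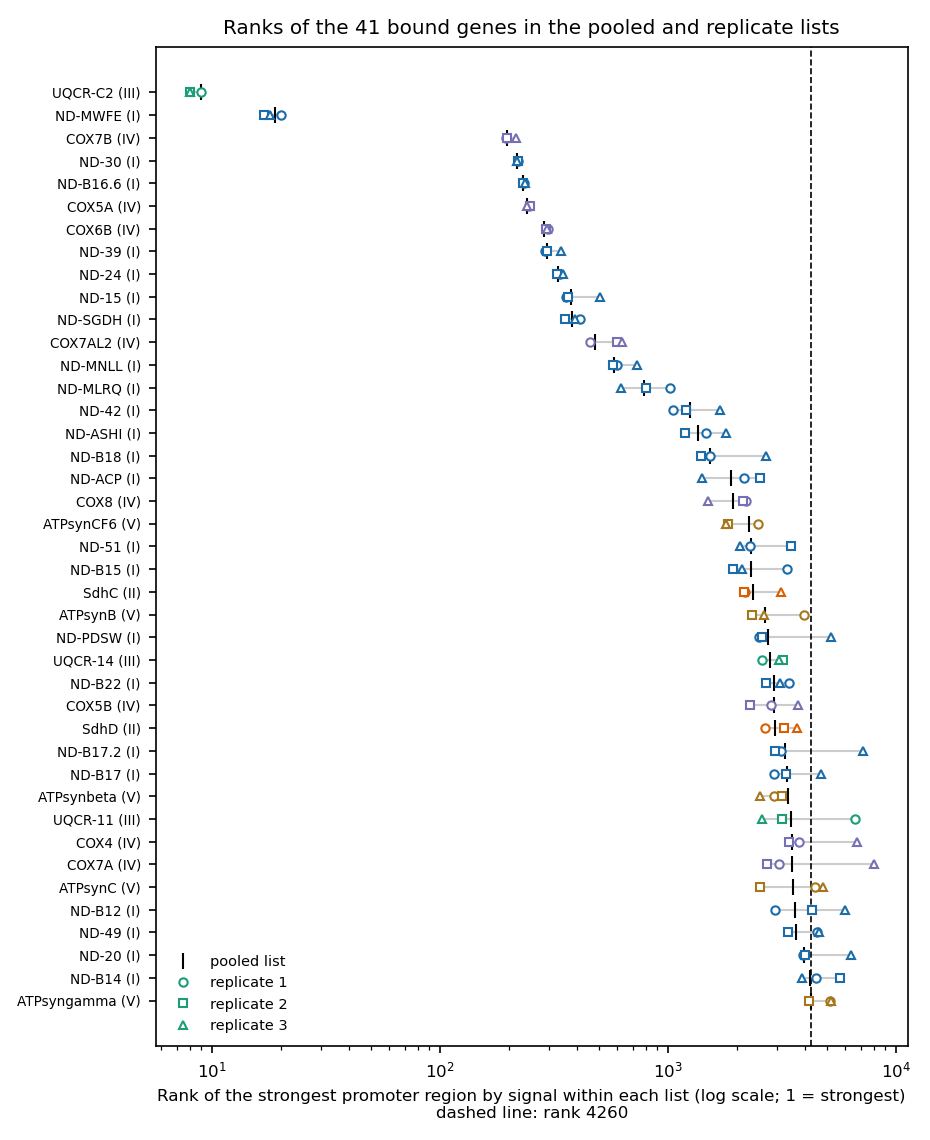
Rank of the strongest promoter region of each of the 41 bound genes (complex in brackets) by signal within the pooled list (black tick) and within each replicate list (open symbols), on a log axis with the strongest at the left. The symbols of the upper genes nearly coincide, while from about ND-PDSW downwards single replicates fall beyond the dashed line at rank 4260, as COX7A does at 7989 in replicate 3.

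The DNA under the summits is shown for the 9 strongest peaks of the chain apart from that of ND-MWFE, in order of rank, to let the bound sites be compared. Each sequence runs 5' to 3' on the strand of its gene in dm6 and was read from the RefSeq copy of that assembly. Windows of 61 bases are centred on the summit, and windows of 30 bases are used where a UTR is touched. Capitals mark the 5-base sequence GTCAC or its complement GTGAC, the Motif 1 core GGTCACAC, and the DNA replication-related element (DRE) TATCGATA with its part CGATA, each on either strand. The GTCAC of Motif 1 and the CGATA of the DRE overlap the longer sequences.
UQCR-C2, chr3L:16584223-16584252, plus strand: taaGTCACagctggtactcgGTGTGACCat
COX7B, chr3L:17425321-17425381, plus strand: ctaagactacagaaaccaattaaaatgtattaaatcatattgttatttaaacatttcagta
ND-30, chr3L:3160001-3160030, minus strand: gcgttGTCACagttttcagccagggtagtc
ND-B16.6, chrX:6350406-6350435, minus strand: tttgcagtattcgccactttttggtatatt
COX5A, chr3R:11819523-11819552, plus strand: taaatatctcactgttccGTGACagcgaca
COX6B, chrX:19744357-19744417, minus strand: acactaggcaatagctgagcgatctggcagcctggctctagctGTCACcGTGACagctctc
ND-39, chr3L:20495254-20495314, plus strand: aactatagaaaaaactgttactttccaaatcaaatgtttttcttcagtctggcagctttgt
ND-24, chrX:17632090-17632119, plus strand: attgttgaaaagtgtcatagatactgaagt
ND-15, chr2L:114595-114655, plus strand: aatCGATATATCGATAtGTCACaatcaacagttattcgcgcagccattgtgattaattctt
Of the 9 windows 5 hold GTCAC or its complement and 4 hold none of the marked sequences. UQCR-C2 shows it at 2 places in 30 bases, the second within a Motif 1 core on the minus strand. In COX6B the 2 orientations stand 1 base apart. At COX7B, ND-B16.6 and ND-24 it lay outside the printed bases but within 50 bp of the summit, and at ND-39 it was not found within that distance.

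Within 50 bp of the summit, GTCAC on either strand was found at 19 of the 41 bound genes of the chain (46.3%), against 26.4% of all bound protein-coding genes. At the 14 strongest genes it was found 10 times (71.4%), against 41.7% of all bound protein-coding genes in the strongest peaks. At the other 27 bound genes it was found 9 times (33.3%), against 21.0% of the remaining bound protein-coding genes. The same windows moved 300 bp to either side held it in 12.2% of cases at genes of the chain and in 11.4% at all bound protein-coding genes. The sequence thus stood at the summit more often than beside it, both in the chain and elsewhere. It was looked for because it was already known to be frequent at summits of these data, and the counts are a description.

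CGATA was found within 50 bp of the summit at 17 of the 41 bound genes (41.5%), against 38.4% of all bound protein-coding genes, with 12.2% and 13.8% in the flanking windows. The complete DRE, a promoter sequence of many fly housekeeping genes, was present at 4 genes (9.76%), against 10.2% of all bound protein-coding genes. They were ND-15, ND-B15, COX7A and SdhC. The Motif 1 core, another element of fly housekeeping promoters, was also present at 4 genes (9.76%), against 4.65%. These were UQCR-C2, ND-B14, ND-PDSW and COX4.

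Motif 1 was common around the starts of subunits under their own name, both bound and unbound. Within 100 bp of a start it was found in 17 of the 63 subunits under their own name (27.0%), against 7.56% of all protein-coding genes, and in 0 of the 24 second copies. Of the 40 bound subunits under their own name 12 had it, against 13.4% of all bound protein-coding genes. Of the 23 unbound subunits under their own name 5 had it (21.7%), against 5.25% of all unbound protein-coding genes. The DRE was found within 100 bp of a start in 8 of the 63 (12.7%), against 8.49% of all protein-coding genes. It stood in 4 of the 40 bound subunits under their own name, against 17.6% of all bound protein-coding genes, and in 4 of the 23 unbound ones (17.4%), against 4.93% of all unbound protein-coding genes. The core CGCATGCG of the site of NRF-1, a mammalian activator of respiratory genes, was found within 100 bp of a start in 0 of the 87 genes, against 0.681% of all protein-coding genes, and within 500 bp in 1 (1.15%), against 1.91%. The NRG element, described in nuclear respiratory genes of Drosophila, lay within 100 bp of a start in 1 of the 63 subunits under their own name (1.59%), against 0.0717% of all protein-coding genes. Within 500 bp it was found in 4 of the 63 (6.35%), against 0.688%. Within 50 bp of a summit it was found in 0 of the 41 bound genes, against 1 of the 3936 bound protein-coding genes (0.0254%). All of these searches covered both strands.

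By complex, the share of bound subunits under their own name was highest in complex IV. There 7 of 8 were bound (87.5%), against 23 of 34 in complex I (67.6%), 2 of 4 in complex II, 3 of 6 in complex III and 5 of 11 in complex V (45.5%). The replicates gave 79.2% ± 14.4 for complex IV, 60.8% ± 10.3 for complex I, 58.3% ± 14.4 for complex II, 44.4% ± 9.62 for complex III and 42.4% ± 18.9 for complex V, against 27.3% ± 0.944 for all other protein-coding genes (SD, n = 3). Of the 10 pairs of complexes, 6 differed in the same direction in all replicates, among them complex IV against each other complex. Complex IV minus complex V was 51.1, 23.9 and 35.2 percentage points in the 3 replicates, a mean of 36.7 ± 13.7 (SD, n = 3). No pair can pass a test at this size, since the exact permutation p over 3 replicates is at least 0.25 before any adjustment over the 10 pairs. With 4 to 11 genes in complexes II to V, 1 gene moves a share by many points.

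**Figure D3:**
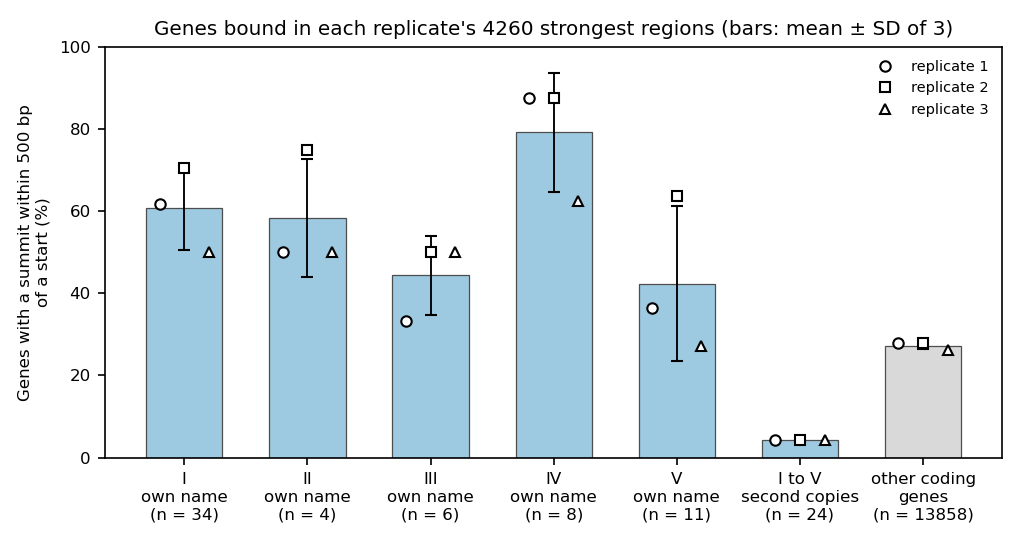
Percent of genes with a summit within 500 bp of a start among the 4260 strongest regions of each replicate; symbols are replicates, bars their mean and whiskers the SD (n = 3). Among subunits under their own name complex IV lies highest at 79.2%. The second copies lie at 4.17% in every replicate, and all other protein-coding genes lie at 27.3%.

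In complex I binding covered both the core subunits, which carry the flavin and iron-sulphur centres or the quinone site, and the accessory subunits around them. Of 7 nuclear core subunits 5 were bound (71.4%), and of 27 accessory subunits 18 (66.7%). The core subunits ranked widely apart. ND-30 at rank 218 and ND-24 at rank 328 were among the strongest, ND-51, which binds NADH, had a signal of 214 at rank 2307, ND-49 had 145 at rank 3645, and ND-20 had 136 at rank 3938. The remaining core subunits were not bound. ND-23 ranked 5120, and ranked 5233, 2986 and 5985 in the replicates. ND-75, the largest subunit, ranked 12102 with a signal of 54.2. Among accessory subunits the lowest bound rank was that of ND-B14, 4217, with a signal of 128. In the middle lay ND-42 (346), ND-ASHI (324), ND-B18 (294) and the acyl carrier protein ND-ACP (250.1).

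In complex II, succinate dehydrogenase, both membrane anchors were bound and neither catalytic subunit was. SdhC had a signal of 209.8 and ranked 2186, 2165 and 3125 in replicates 1, 2 and 3. SdhD had a signal of 173 and ranked 2653, 3216 and 3680. SdhB, the iron-sulphur subunit, was below the threshold with a signal of 102 at pooled rank 5460. It ranked 4500 and 3916 in replicates 1 and 2 and had no region in replicate 3, so replicate 2 alone placed it among the strongest 4260. SdhA, the flavoprotein that oxidizes succinate, had no region within 500 bp of a start in any list. The copies SdhAL and SdhCL had no region either, and SdhBL had a signal of 41.9 at rank 17748. The SdhC summit was 327 bp upstream of SdhC and nearer to the start of Tctp on the opposite strand, so the binding there cannot be given to SdhC rather than Tctp.

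The SdhC window is printed because it holds a complete DRE, in capitals, between the starts of SdhC and Tctp.
SdhC, chr3R:11210146-11210206, minus strand: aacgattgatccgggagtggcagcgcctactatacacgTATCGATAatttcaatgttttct

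Complex III was uneven. UQCR-C2 had the strongest peak of the chain, while UQCR-C1, the other core protein, had a signal of 55.1 at rank 11842 and was not bound. The small subunits UQCR-14 and UQCR-11 were bound with signals of 181 and 152. UQCR-11 ranked 6587, 3179 and 2586 in the replicates, so replicate 1 did not place it among the strongest 4260. UQCR-6.4 lay below the threshold at rank 4718, with a signal of 116, and UQCR-Q at rank 11266.

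Complex IV, cytochrome c oxidase, has its catalytic subunits encoded in mitochondrial DNA, and its nuclear genes are all for accessory subunits. COX7B, COX5A and COX6B were strongly bound. COX8 (245), COX5B (175), COX4 (151) and COX7A (151) were bound weakly. COX7A ranked 3062, 2734 and 7989 and COX4 ranked 3743, 3401 and 6762, and both left the strongest 4260 regions in replicate 3. The one subunit under its own name that was not bound was COX7C, with a signal of 77.7 at rank 7561. The lowest bound rank, 3494, belonged to COX7A.

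In complex V every bound gene was weak. The highest signal was 216, at ATPsynCF6 of the stalk, and the lowest was 127, at ATPsyngamma, the rotating shaft of the catalytic F1 part. ATPsynB of the peripheral stalk (189), ATPsynbeta, which holds the catalytic sites (156), and ATPsynC, which forms the proton-driven ring (148), lay between them. The ATPsynCF6 summit lay 261 bp upstream of ATPsynCF6, in the 5' UTR of Sec13, whose start was nearer. The ATPsynbeta summit was nearer to a start of CG11076. Of the 3 F1 genes that follow the symbol rule 2 were bound, and of the 8 genes for the membrane part and stalks 3 were. The subunits blw (bound, signal 289) and sun (not bound) carry other symbols and are not counted here. All 6 unbound subunits under their own name had a pooled region, with signals from 46.5 at ATPsynD to 126 at ATPsynO. In replicate 2, 63.6% of these 11 genes were among the strongest 4260 regions, against 36.4% in replicate 1 and 27.3% in replicate 3. Complex V therefore had the largest spread between replicates of the 5 complexes.

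The threshold cut through a dense run of genes. Just inside it were ATPsyngamma at pooled rank 4250 (signal 127), ND-B14 at 4217 (128) and ND-20 at 3938 (136). Just outside it were ATPsynO at 4283 (126), ATPsynE at 4436 (122) and ND-13B at 4684 (116). ND-13B, an accessory subunit of complex I, ranked 4425, 4136 and 23284 in the replicates. ATPsyngamma ranked 5141, 4152 and 5181, and ATPsynE ranked 4746, 3454 and 4554, so the bound gene and the unbound one were hardly different. In all, 19 genes were among the strongest 4260 regions in 1 or 2 replicates. By order of symbol the first 10 were ATPsynC, ATPsynE, ATPsynF, ATPsynO, ATPsyngamma, COX4, COX7A, ND-13B, ND-20 and ND-23.

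The second copies stood apart as a group. Of the 24, 18 had no pooled region and 15 had no region in any of the pooled and replicate lists. They are named after 21 genes, 13 of which were bound. For ND-20L, ND-49L, ND-51L1, ND-51L2, COX5BL and ATPsynbetaL no region was found in any list, while ND-20, ND-49, ND-51, COX5B and ATPsynbeta were bound. COX5BL starts 1631 bp from COX5B, so close spacing in the genome did not go with binding there. COX7AL, 2626 bp from COX7A, had a signal of 65.0 at rank 9434, and COX7CL, 867 bp from COX7C, had 58.6 at rank 10845.

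The exception was COX7AL2, a copy of a complex IV subunit. Its summit, with a signal of 830.1, ranked 456, 599 and 627 in replicates 1, 2 and 3. It lay 484 bp upstream of the nearest COX7AL2 start, close to the limit of 500 bp, in an intron of a longer COX7AL2 transcript, and was lost when the limit was 200 bp. A further thresholded summit near that start had a signal of 654.

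Bound genes of the chain were found on every arm examined. On chromosome arm 3L 10 of 13 subunits under their own name were bound (76.9%), against 27.1% of all protein-coding genes of the arm, and on 2R 4 of 11 (36.4%), against 27.4%. The counts were 8 of 12 on 2L (66.7%, against 26.6%), 8 of 13 on 3R (61.5%, against 30.5%), 8 of 12 on X (66.7%, against 28.3%) and 2 of 2 on chromosome 4 (against 53.8%). Of the 14 strongest genes 6 were on 3L, but the share of 3L among all genes at the strongest peaks was not counted.

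The summits lay mostly upstream of the gene's nearest annotated start. The median summit was 77 bp upstream of the gene's nearest start in the 41 bound genes of the chain, against 85 bp upstream in all bound protein-coding genes. It was upstream in 39 of the 41 (95.1%), against 86.7%, and within 200 bp in 33 (80.5%), against 76.3%. The exceptions were ND-24, with a summit 15 bp downstream, and UQCR-14, with a summit 6 bp downstream. Upstream refers here to the nearest of a gene's annotated starts. At UQCR-C2, COX5A, ND-39, ATPsynbeta and others such a summit lay inside the gene, downstream of its outermost start. By annotation 23 of the 41 summits were intergenic, 10 in a 5' UTR, 7 in an intron and 1 in an exon of a microRNA gene beside ND-MLRQ. The 41 genes had 41 different summits. Peaks outside the strongest group nearly all had the fixed width of 416 bp (25 of 27), whereas 0 of the 14 strongest had it, with widths from 247 to 1021 bp.

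**Figure D4:**
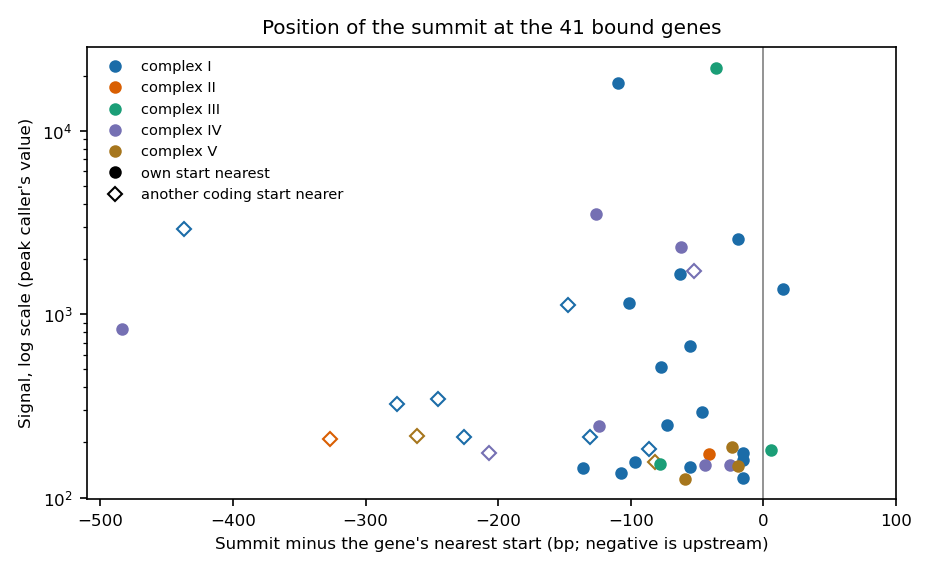
Distance of the strongest summit from the nearest annotated start of each of the 41 bound genes (bp, negative is upstream) against its signal on a log axis, coloured by complex. Filled circles have their own start nearest and open diamonds have another protein-coding start nearer; the 12 diamonds include ND-30 at -437 bp and SdhC at -327 bp, and 39 of the 41 points lie upstream.

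Many bound promoters were shared with a neighbour. The gene's own start was the nearest protein-coding start in 29 of the 41 (70.7%), against 70.6% of all bound protein-coding genes. A start of any other gene lay within 500 bp of the summit in 26 (63.4%), against 62.7%, and a coding gene on the opposite strand in 24 (58.5%), against 57.6%. In these respects the bound genes of the chain were close to other bound genes. Counted from the starts alone, 26 of the 40 bound subunits under their own name (65.0%) had a coding gene starting head to head within 500 bp upstream, as did 10 of the 23 unbound ones (43.5%) and 3 of the 24 second copies (12.5%), against 27.4% of all protein-coding genes. Head-to-head starts thus moved with binding, in the chain and in the genome (55.8% of bound and 16.2% of unbound protein-coding genes); their part in the counts above was not tested.

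The partners named here were chosen after their identities were seen. ND-B16.6 faces kdn, the citrate synthase of the tricarboxylic acid cycle, with 228 bp between the starts, and the summit of 2568 lay 19 bp upstream of ND-B16.6. ND-ASHI shares its summit with Fum1, a fumarase, 522 bp away, where the peak lay in an intron of Fum1. ND-42 faces Cchl, which attaches haem to cytochrome c, at 229 bp, and the summit lay in the 5' UTR of Cchl. These 3 partners act in mitochondria; how often that would be met among partners of other bound genes was not tested. ND-MWFE faces TppII, a peptidase, at 221 bp, COX7B faces Sec3, an exocyst subunit, at 260 bp, COX8 faces VhaM9.7-b, a subunit of the vacuolar proton pump, at 415 bp, and ND-PDSW faces msl-2, of the dosage compensation complex, at 45 bp. The ND-30 summit, 437 bp upstream of ND-30, lay in the 5' UTR of CG15812. UQCR-C2 and ND-15 had no other gene start within 500 bp of the summit, so strong binding was also found at promoters of single genes.

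Neighbouring pathways were looked at from lists given by symbol. Of 17 genes of the tricarboxylic acid cycle and pyruvate dehydrogenase 12 were bound (70.6%; 68.6% ± 8.99 over replicates, SD, n = 3), led by Pdhb, a subunit of pyruvate dehydrogenase, at 6216, and kdn at 2568. Of 10 genes for electron carriers and ATP export 7 were bound (70.0%). There wal, the alpha subunit of the electron transfer flavoprotein, had a signal of 6218, and the ADP/ATP carriers sesB and Ant2 shared a peak of 1830.1. Cyt-c-d was bound (214), while Cyt-c-p, the other cytochrome c gene, was not (rank 7551). Of 13 assembly factors 5 were bound (38.5%), and of 13 genes for mitochondrial DNA maintenance and transcription 6 (46.2%). The mitochondrial ribosomal protein genes had 42 of 73 bound (57.5%; 53.9% ± 2.85 over replicates, SD, n = 3). Of these, kdn, Fum1 and Cchl were called through the summits already counted for ND-B16.6, ND-ASHI and ND-42. The background for all of these lists is the 28.2% of protein-coding genes given above, and 27.4% for the means over replicates.

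Of 8 structural subunits that carry other symbols 2 were bound in the thresholded list, a share slightly below the 28.2% of all protein-coding genes. Over replicates their mean share was 33.3% ± 7.22 (SD, n = 3), slightly above the 27.4% of all protein-coding genes. The peak of levy, a complex IV subunit, had a signal of 11127 and ranked 61, 66 and 80 in the replicates, above every gene of the 87 except UQCR-C2 and ND-MWFE. The peak of blw, the alpha subunit of ATP synthase, had a signal of 289. The complex III genes RFeSP and Cyt-c1 and the complex IV gene cype were not bound, at pooled ranks 8350, 5231 and 4653.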

How the data were processed

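Peak lists of ChIP-seq from 3 replicates of 1 group were analysed. The deposited lists give each region a signal, the authors' measure of enrichment over a control file, per the submitters' notes. The final list was thresholded by IDR, per the submitters' notes; the aligner, the peak caller and the IDR value used as threshold are not named in them, and depth was unknown, so no counting interval could be given. Of the deposited lists, 5 on dm6 were used; 5 on dm3 were not analysed here. The 4260 thresholded peaks were the strongest of the pooled list, so they do not separate replicates.

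Starts came from Ensembl release 115 (BDGP6, version 6.54), chromosome arms 2L, 2R, 3L, 3R, 4 and X, with 13945 protein-coding genes. The summit was the interval start plus the offset column; coordinates are 1-based. A gene's value is its strongest region within 500 bp of any start. Ranks, counts and exact tests were computed in Python 3.11.15 (numpy 2.4.6), tested on simulated data, and plotted with matplotlib 3.10.9. No p-value over genes was computed.

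The members, lists and sequences searched were chosen with earlier results of these data known. The subunits under other symbols and the sequences GTCAC and CGATA were added after the files were read. In the pathway lists 13 of 25 assembly factor symbols and 17 distinct genes from 19 symbols of the tricarboxylic acid cycle list were found; the other lists were found whole. Genes named are the 10 strongest, all of complex II, the first and last bound of each complex, 3 on either side of the threshold, and those whose call differed between replicates; others were named after their values were seen. Alternatives covered the promoter distance, nearest start, peak sets, second copies and each replicate left out.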

Additional observations from a re-analysis of the deposited data

How the results depend on the processing

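Of 99 alternative values, 69 were classed as unchanged, 30 as moved and 0 as reversed. Unless the cause of a move is given, it was not tested. A value classed as unchanged was not always close to the reported one. The mean difference over replicates, 16.0 points, was so classed though its size varied widely. It was 5.89 points with the 2130 strongest regions of each replicate, 21.6 with 8520 and 30.9 without second copies. With the 2130 strongest peaks, 19 of the 87 genes were bound (21.8%, against 16.3% of all protein-coding genes), 13 in complex I, 0 in complex II, 1 in complex III, 5 in complex IV and 0 in complex V; the difference from other genes fell to 5.59 points, the median rank was 374, 14 genes had their own start nearest, 15 had another gene start near, and 1 each had the DRE and Motif 1. The whole pooled list gave 66. At 200 bp complex II had 1 bound gene. Peaks also in all 3 replicate lists gave a difference of 11.6 points, against 19.0 with the thresholded list, and leaving out second copies gave 35.4. The replicate mean of 43.3% became 31.0% with the nearest start only, 58.2% without second copies, 21.8% with the 2130 strongest regions of each replicate and 60.5% with 8520. The list called on pooled replicates could not be called again without one, so leaving out 1 replicate meant asking that a thresholded peak also stand among the 4260 strongest regions of both others, a stricter call by construction. It gave 29 to 35 bound genes, 3 in complex V whichever replicate was left out, differences of 10.5 to 16.1 points, median ranks of 1250 to 1888, 18 to 23 genes with their own start nearest and 1 to 3 with Motif 1. With depth unknown, a gene that was not bound was one not detected above the threshold.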
